A study of Mus musculus with 4 samples.

Results

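Gamma delta T cells of the mouse lung were described in 2 single-cell libraries, 1 from mice with a human TNF transgene (TNF+) and 1 from mice without it (TNF-). The cells were chosen by their own transcripts. A barcode was kept when it had at least 500 unique molecular identifiers (UMIs, each 1 captured mRNA molecule) and at most 20% of them mitochondrial. It was taken as a gamma delta T cell when it had at least 1 UMI of Trdc, the constant segment of the T cell receptor delta chain, and at least 2 UMIs of Cd3e, Cd3d and Cd3g together, and no UMI of Cd4, Cd8b1, Foxp3, Cd79a or Csf1r. This gave 97 cells of the 19427 kept lung barcodes, 34 in the TNF- library and 63 in the TNF+ library. Since Trdc and the Cd3 genes defined the cells, their presence is not a finding.

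Gamma delta T cells are a small class of T lymphocytes that settle in barrier tissues and answer cytokines without waiting for priming in a lymph node. In the mouse lung they fall into broad types. One makes IL-17, a cytokine that recruits neutrophils, under factors such as c-Maf (gene Maf) and in answer to IL-23 and IL-1. Another makes interferon gamma and cytotoxic proteins under T-bet (gene Tbx21). A fetal wave that pairs the variable segments Vγ6 (Tcrg-V6) and Vδ1 (Trdv4) stays in the lung for life and makes IL-17. The scavenger receptors encoded by Cd163l1 (also called Scart1) and 5830411N06Rik (Scart2) are known as surface markers of IL-17-type gamma delta T cells.

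The TNF+ mice were of the TNF-Tg line, which carries 1 copy of the human TNF gene and develops inflammatory erosive arthritis and pulmonary hypertension. Their wildtype littermates on the same C57BL/6 background were the TNF- controls. All mice were female and 4 months old, and the lungs of 3 to 5 animals per genotype were pooled before digestion, staining for viability, sorting of live cells and droplet capture. No treatment was given, and the gate of the sort did not select for T cells. Each genotype is therefore 1 library, and a difference between TNF+ and TNF- has no replicate check. The intervals given here are 95% intervals that cover counting error only, and no p-value is given. The human transgene was not in the reference to which reads were aligned, so its transcript was not measured, and mouse Tnf below is the endogenous gene.

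The receptor gamma chain ends in 1 of several constant segments, and their likeness limits how far each can be counted alone. The first 90 bases of the first constant exon are shown for the 3 copies detected in these cells, on chromosome 13 of build GRCm38. Tcrg-C1 lies at chr13:19214103-19214192 on the plus strand, Tcrg-C2 at chr13:19307462-19307551 on the minus strand and Tcrg-C4 at chr13:19344558-19344647 on the plus strand. Capitals mark bases that differ from Tcrg-C1.
Tcrg-C1: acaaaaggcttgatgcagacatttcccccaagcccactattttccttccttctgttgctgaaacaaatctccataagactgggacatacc
Tcrg-C2: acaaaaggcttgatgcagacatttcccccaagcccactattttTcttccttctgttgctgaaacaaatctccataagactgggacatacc
Tcrg-C4: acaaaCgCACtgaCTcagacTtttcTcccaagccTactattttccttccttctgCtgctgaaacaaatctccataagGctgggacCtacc
Over the whole exon of 330 bases, Tcrg-C2 differed from Tcrg-C1 at 9 positions (97.3% identity) and Tcrg-C4 at 59 positions (82.1% identity). In the last 400 bases of the transcript, where most reads of a 3′ library fall, 15.2% of the 60-base windows of Tcrg-C1 occurred unchanged in Tcrg-C2 and 0 of 341 in Tcrg-C4. A read that lies within a shared window cannot be told apart between Tcrg-C1 and Tcrg-C2, while Tcrg-C4 is more distinct. How far this moved the counts of Tcrg-C1 and Tcrg-C2 was not tested.

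The label was checked against receptor genes that the gate did not use. Trdc (chr14:54142851-54148868), as a description, had a median of 16 UMIs per TNF- cell and 11 per TNF+ cell, with maxima of 75 and 59. At least 1 UMI of Tcrg-C1, Tcrg-C2 or Tcrg-C4 was present in 30 of 34 TNF- cells and in 56 of 63 TNF+ cells. Tcrg-C1 was found in 27 and 46 cells, against 0 of 193 TNF- NK cells (upper limit 1.55%, taken here and below as 3 cells of the total) and 1.89% of TNF+ NK cells. The gamma chain thus accompanied the delta chain in most of the cells. Without any of these gamma constant transcripts were 4 TNF- and 7 TNF+ cells, of which 1 and 5 had Trac, the constant segment of the alpha chain. Trac was seen in 18 of 34 and 23 of 63 cells, at a level of 87.4 and 109 counts per 1000000 UMIs of the group (CPM), which was lower than in CD4 and CD8 T cells of the same libraries by 2.22 and 2.23 on the log2 scale. The constant segments of the beta chain were closer to those T cells. In cells of at most 5000 genes, Trbc1 was at log2 ratios of -0.10 (TNF-) and -0.43 (TNF+), and Trbc2 at -0.56 and -0.88. Ncr1 or Klrb1c, receptors of NK cells, were present in 5 TNF- and 12 TNF+ cells, and NK cells themselves carried Trdc in 31.1% and 27.4%. Of 5 markers of type 2 innate lymphoid cells, Il13 and Il5 were at 0 in both libraries, Il1rl1 was seen in 1 and 3 cells and Rnf128 in 2 and 1. Gata3, which T cells also express, was present in 22 and 39 cells, and in 51.1% and 57.5% of CD4 and CD8 T cells.

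At the edge of the gate, 1 TNF- and 6 TNF+ cells had a single UMI of Trdc, and 1 and 6 had exactly 2 Cd3 UMIs. Just outside it, 66 TNF- and 57 TNF+ barcodes with Trdc had no Cd3 UMI, and 60 and 29 of them had Ncr1. A further 169 and 200 barcodes met every other condition but had no Trdc, and Trac was present in 84.6% and 78.5% of these. B cells, which should lack Trdc, had it in 0.317% and 1.25%, at median depths of 7466 and 7969 UMIs against 10310 and 9411 UMIs in the gamma delta T cells.

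Depth was uneven within the cells, which bears on each sum below. The lung libraries held 96120328 (TNF-) and 155989523 (TNF+) UMIs in all, and no gamma delta barcode of 1 lung library occurred in the other. Among the TNF- cells, 6 of 34 had over 5000 detected genes and 19120 to 84865 UMIs, and these 6 supplied 49.1% of all UMIs of the 34 cells. Among the TNF+ cells 2 of 63 did, with 38497 and 47029 UMIs and 12.9% of the UMIs. The study itself kept barcodes of 200 to 5000 genes. Sums between TNF+ and TNF- are therefore given for all 34 and 63 cells and again for the 28 and 61 cells of at most 5000 genes, whose median depths were 9549 and 9363 UMIs. Of the deep barcodes, 4 also carried RNA of another lung cell. In the TNF- library 2 had 71 and 8 UMIs of the endothelial gene Cldn5 and 63 and 16 of Cdh5, against at most 1 UMI of each in the other cells. In the TNF+ library 2 had 4539 and 5948 UMIs of Sftpc, the surfactant gene of alveolar type 2 cells, against at most 40. The rule for these 4 droplets, at least 5 UMIs of Cldn5 plus Cdh5 or of Epcam, was chosen after the values were seen. Of them, 1 TNF+ droplet held 3 UMIs of Il17a.

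Gamma delta T cells made up 0.408% of kept TNF- barcodes (34 of 8342, interval 0.282 to 0.569%) and 0.568% of kept TNF+ barcodes (63 of 11085, 0.437 to 0.727%). The difference was 0.161 percentage points, with an interval from -0.0427 to 0.357. Among the T cells gated on Cd3 (gamma delta, CD4 and CD8 together) the share was 5.26% of 646 in the TNF- library and 9.08% of 694 in the TNF+ library, a difference of 3.81 points (1.04 to 6.60). The second denominator moved with its parts, since the gates held 283 and 404 CD4 T cells but 329 and 227 CD8 T cells. Shares of a pooled and sorted suspension also depend on how well each cell type was released, and this was not tested.

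The cells were not uniform. By rules chosen after the data were seen, they were split in 4 groups: cells with Cd163l1 (17 TNF-, 34 TNF+), cells with 5830411N06Rik and no Cd163l1 (3 and 9), cells with at least 3 UMIs of Ccl5 and neither of these (8 and 14), and the remaining 6 and 6. Cd163l1 (chr7:140218267-140231145) and 5830411N06Rik (chr7:140247284-140300736) are neighbours on chromosome 7, yet only 2 TNF- cells and 1 TNF+ cell had both. Since the groups were cut from the same counts, the gene levels that follow are a description of them. The 4 droplets with RNA of another lung cell were kept in the groups. In the TNF- library 1 was among the 5830411N06Rik cells and 1 among the Ccl5 cells. Both TNF+ droplets were among the Cd163l1 cells.

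**Figure D1:**
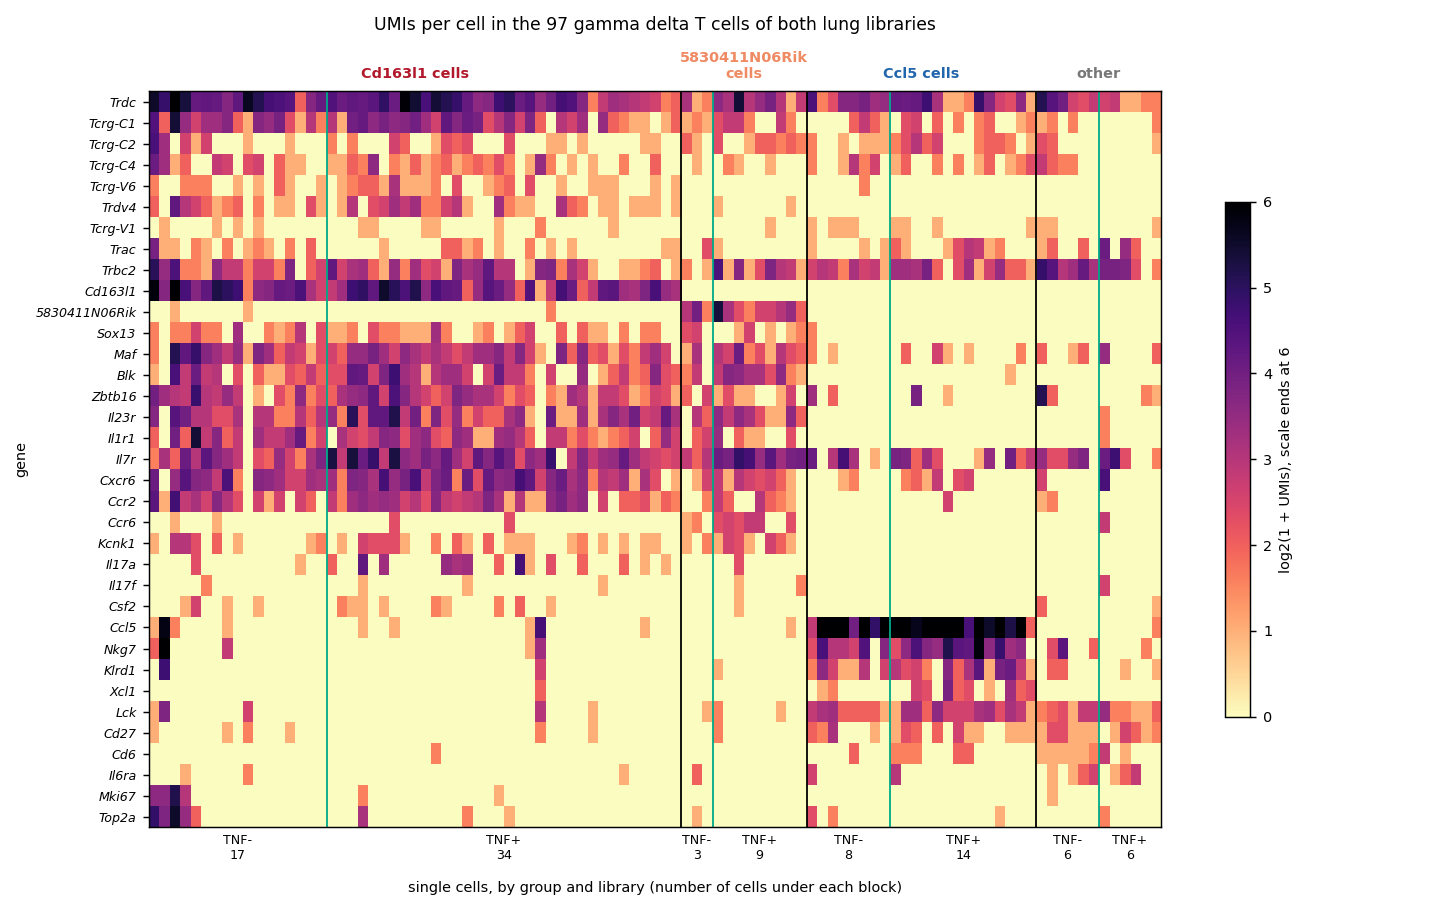
Heat map of UMIs per cell, on a log2(1 + UMIs) scale that ends at 6, for 35 genes (rows) in the 97 cells (columns), ordered by group and library with cell numbers under each block. Il23r, Il1r1, Blk, Cxcr6 and Ccr2 fill the Cd163l1 block, whereas Nkg7, Klrd1, Lck and Cd27 lie in the Ccl5 block and, for the last 2, in the remaining cells.

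The Cd163l1 cells carried the IL-17 program. Of 51 cells in both libraries, 48 had Il23r, the receptor chain for IL-23, 46 had Il1r1, 43 had Blk, a kinase needed by IL-17-type gamma delta T cells, and 35 had Sox13. The homing receptors Cxcr6 and Ccr2 were found in 48 and 46, the leukotriene B4 receptor Ltb4r1 in 41, and the checkpoint receptor Pdcd1 in 27. The segments of the fetal pair were common, as Trdv4 was present in 38 of the 51 and Tcrg-V6 in 30, against 2 and 1 of the other 46 cells. The kinase Lck was found in 5 of 51 cells, Cd27 in 6, Cd6 in 1 and Cd28 in 2.

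The 5830411N06Rik cells shared part of this program, and the segments of the fetal pair were seldom detected in them. Il23r and Blk were present in 11 of 12 each, Kcnk1 in 9 and Itgae, an integrin that binds epithelium, in 10. Ccr6, a homing receptor of IL-17-producing lymphocytes, was present in 8 of 12, compared with 4 of the 51 Cd163l1 cells. Tcrg-V6 was found in 0 of the 12 and Trdv4 in 2. Tcrg-V4, another variable segment, was seen in 3 of the 12 and in 7 of the 51 Cd163l1 cells, at no more than 2 UMIs in a cell.

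The Ccl5 cells carried part of the interferon gamma and cytotoxic list. Of 22 cells, 20 had Nkg7, 20 Klrd1, 19 Tbx21, 11 the chemokine Xcl1 and 8 Ifng. The effector genes were less common, with the pore-forming Prf1 in 9 of 22 and the granzymes Gzma and Gzmb in 4 and 3, whereas Il23r was at 0 in all 22. Ccl5 itself ranged from 6 to 211 UMIs in the 8 TNF- cells and from 3 to 492 in the 14 TNF+ cells. The NK receptors Klrb1c and Ncr1 were found in 14 and 6 of them. In the remaining 12 cells Lck was present in all 12, Cd27 in 11, Lef1 in 10, and Tcf7, Cd6 and Cd28 in 8 each. The Ccl5 cells shared most of these, with Lck in 22 of 22, Tcf7 in 16, Cd27 and Lef1 in 14 each, Cd28 in 12 and Cd6 in 6. The remaining 12 cells included 6 with Trac and 4 with Tcrg-C1. Among the Ccl5 cells, Trac was present in 3 of 8 TNF- and 8 of 14 TNF+ cells, and Trbc2 in 8 and 13. Of the gamma constant genes, Tcrg-C1 was found in 4 and 8 of these Ccl5 cells, Tcrg-C2 in 5 and 10 and Tcrg-C4 in 5 and 9.

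No group's share differed between the libraries beyond its counting interval. Cd163l1 cells were 50% of the TNF- cells (interval 32.4 to 67.6%) and 54.0% of the TNF+ cells (40.9 to 66.6%), a difference of 3.97 points (-16.1 to 23.7). The 5830411N06Rik cells were 8.82% and 14.3% (difference 5.46 points, -10.1 to 17.6), the Ccl5 cells 23.5% and 22.2% (-1.31 points, -19.8 to 14.8) and the remaining cells 17.6% and 9.52% (-8.12 points, -24.8 to 5.34). These intervals are wide, and a smaller shift was not detectable with so few cells.

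Against CD4 and CD8 T cells of the same library, 12.5% of 12077 genes were at least 2-fold higher and 9.41% at least 2-fold lower in gamma delta T cells of the TNF- lung. In the TNF+ lung 9.98% of 11522 genes were higher and 7.62% lower. Of 11066 genes tested in both, 383 were higher in both and 230 lower in both. In cells of at most 5000 genes in both gates, 11.6% of 11010 genes were higher and 7.18% lower in the TNF- lung, and 8.09% of 11095 higher and 7.13% lower in the TNF+ lung. Here and below, a level is the summed UMIs of a gene in CPM of the group, a gene was compared when it had at least 20 UMIs over both groups, genes of the gate were left out, and 2-fold stands in place of a test. The genes highest over the other T cells in both libraries included Trdv4 (0 UMIs in 612 TNF- CD4 and CD8 T cells and 5 in 631 TNF+ ones), Tcrg-C1 (log2 ratio 6.39 in TNF- and 5.61 in TNF+), Blk (7.28 and 6.24), the potassium channel Kcnk1 (6.61 and 6.66), Cd163l1 (6.08 and 5.29), the adaptor Clnk (5.64 and 5.47) and Zbtb16 (4.51 and 4.72), which encodes PLZF, a factor of innate-like T cells. Blk is also a gene of B cells, and 78.8% and 73.6% of B cells had it, whereas 0 of 193 TNF- and 2.83% of TNF+ NK cells did.

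Among genes lower in gamma delta T cells, named after their values were seen, Cd6 was lower by a log2 ratio of -3.03 in TNF- and -2.82 in TNF+, Cd5 by -2.45 and -2.97, Cd40lg by -3.47 and -3.84, and the ganglioside synthase gene St8sia1 by -2.68 and -4.56. Gzmk, a granzyme of memory CD8 T cells, had 0 UMIs in all 97 cells against 185 and 193 UMIs in the other T cells, a log2 ratio of at most -2.19 and -2.62 when the floor of 3 UMIs over the group stands for the 0.

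By list, 12 of 15 IL-17 homing and surface genes were at least 2-fold higher over other T cells in each library (medians 2.11 and 1.99, against 0.11 and 0.06 over all genes). Of the IL-17 cytokine receptors 6 of 9 were higher in TNF- and 7 of 9 in TNF+, and of the IL-17 transcription factors 6 of 10 and 7 of 10, among them Sox13 (4.52 and 6.34). Of 9 circulation and quiescence genes, 7 were at least 2-fold lower in TNF- and 5 in TNF+, with Ccr7 (-1.98 and -2.52) and Il6ra (-2.12 and -2.32) low in both. Of 12 signalling genes of the receptor, 5 were lower in each library, the same Cd2, Cd5, Cd6, Cd28 and Lck, while Zap70 was at 0.63 and 0.44. No gene of the 16 in the list of TNF receptors and NF-kB differed 2-fold from other T cells in either library. In cells of at most 5000 genes Cd163l1 was at 8.17 and 5.78, Blk at 8.40 and 6.71, Cd6 at -2.14 and -2.64 and Cd5 at -1.64 and -2.87, so the directions of these 4 genes held while their sizes moved. In the same cells the homing genes higher were 11 of 14 and 12 of 15, the receptors 6 and 7 of 9 and the factors 7 and 6 of 10. The circulation genes lower were then 5 and 3 of 9, with Ccr7 and Il6ra among them in both libraries. Cd2 and Lck were no longer 2-fold lower in the TNF- lung, which left 3 of 12 signalling genes there, and Tnfrsf1b was 2-fold higher in it.

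**Figure D2:**
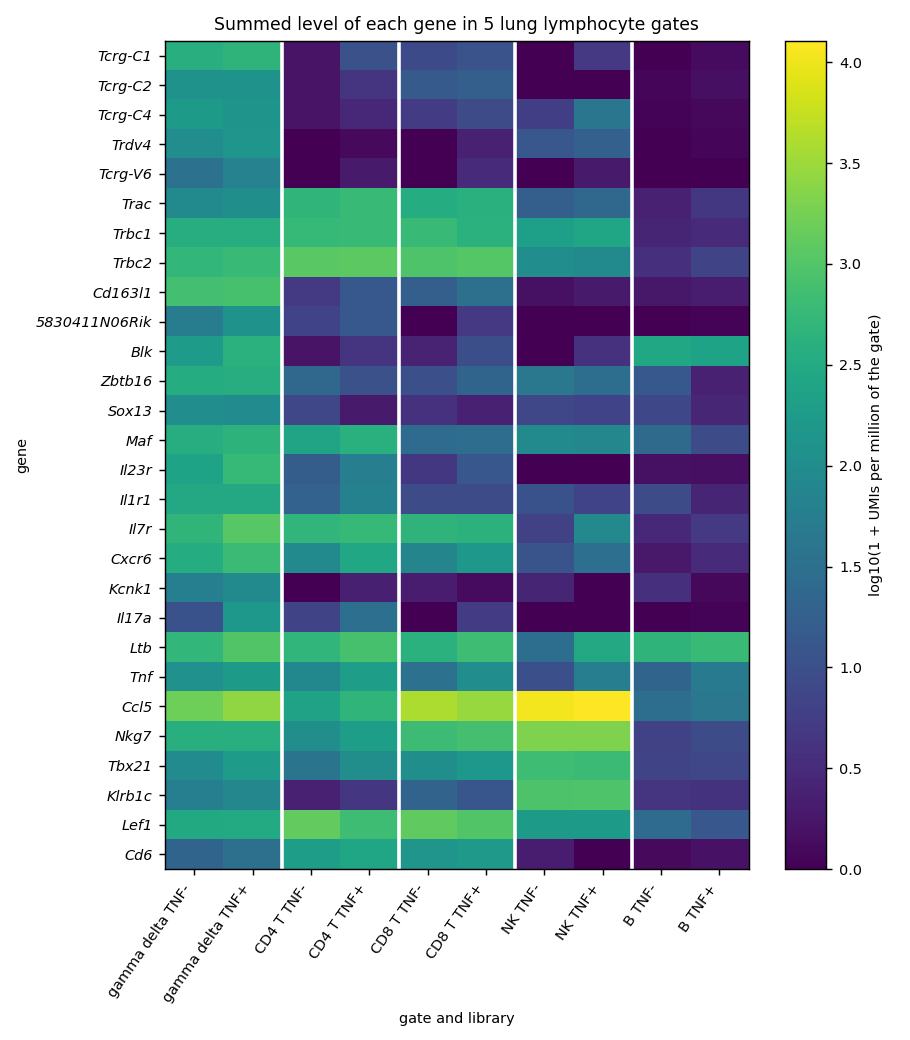
Heat map of summed levels, as log10(1 + CPM of the gate), of 28 genes in 5 gates of lung lymphocytes from each library. Trdv4, Cd163l1, Kcnk1 and Il23r stand out in the gamma delta columns, Blk is shared with B cells, and Ccl5 and Nkg7 are highest in NK cells.

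Between TNF+ and TNF- gamma delta T cells, 6.60% of 7581 genes were at least 2-fold higher and 9.51% at least 2-fold lower over all cells. Without the 4 droplets the shares were 6.76% and 7.81% of 6867 genes. In the cells of at most 5000 genes, 6.45% of 6135 genes were higher and 4.38% lower. The median over all genes was -0.05, 0.01 and 0.01 in these 3 sets. These shares and medians are the background for the counts of list members below.

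Il17a, which encodes IL-17A, was higher in TNF+ cells. It was found in 2 of 34 TNF- cells, with 4 and 1 UMIs, and in 15 of 63 TNF+ cells, with 24, 18, 10, 9, 9, 8, 4, 4, 3, 3, 3, 3, 1, 1 and 1 UMIs. The TNF+ positive cells were more frequent and 8 of them had as much Il17a as the highest TNF- cell or more. The level was 9.94 CPM (interval 3.23 to 23.2) in TNF- and 153 (124 to 185) in TNF+, a log2 ratio of 3.94 (2.67 to 5.59). In cells of at most 5000 genes it was 3.12 (1.85 to 4.78), from 5 UMIs against 98. With each cell thinned to 1000 UMIs, to set equal depth, 1.23% of TNF- and 10.5% (4.17 to 20.8%) of TNF+ cells had a UMI. Before thinning it was 5.88% and 23.8%. B cells, at a similar depth, had Il17a in 0 of 1262 TNF- cells, an upper limit of 0.238%, and in 0.0891% of TNF+ cells.

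Nearly all cells with Il17a were Cd163l1 cells. Both TNF- cells and 14 of the 15 TNF+ cells had Cd163l1, all 17 had Il23r, and none was among the Ccl5 cells. Within the Cd163l1 cells, Il17a was present in 2 of 17 TNF- cells (11.8%, interval 1.46 to 36.4%) and in 14 of 34 TNF+ cells (41.2%, 24.6 to 59.3%). Cd163l1 itself was at 749 CPM in TNF- and 812 in TNF+, a log2 ratio of 0.12 (-0.08 to 0.31), and 36.7% and 40.4% of the cells had it after thinning. Il17f, the neighbouring gene of the same family, had 2 UMIs in 1 TNF- cell and 11 UMIs in 6 TNF+ cells, 3 of which also had Il17a. Il22 was at 0 in both libraries, with upper limits of 8.82% of TNF- and 4.76% of TNF+ cells. Csf2, encoding the growth factor GM-CSF, was found in 5 and 11 cells at a log2 ratio of 0.14 (-1.05 to 1.40). CD4 and CD8 T cells of the same libraries had 18 and 135 UMIs of Il17a, a log2 ratio of 2.88 (2.16 to 3.68). The higher level in TNF+ was thus not confined to the gamma delta gate. The CD4 and CD8 gates did not ask for Trdc at 0. Trdc was present in 3.53% of CD4 and 4.56% of CD8 T cells in TNF-, and in 4.21% and 3.08% in TNF+. Whether the Il17a of these gates came from cells with Trdc was not tested.

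**Figure D3:**
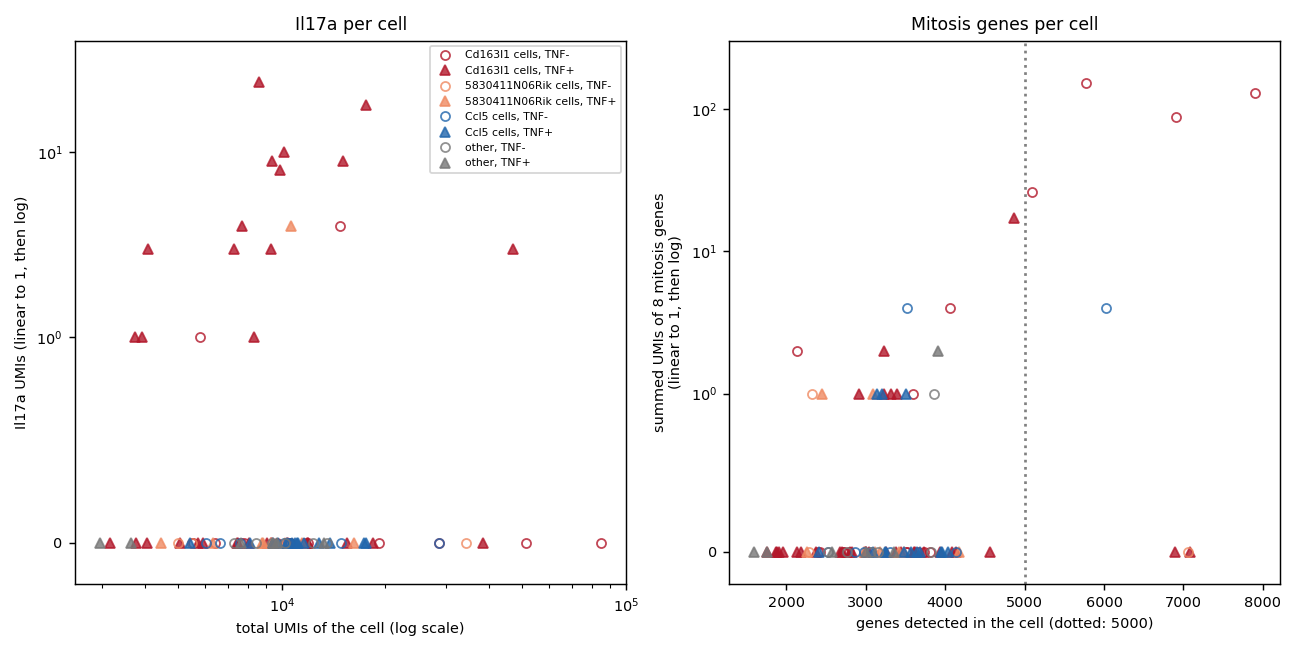
Left, Il17a UMIs of each cell against its total UMIs, and right, summed UMIs of 8 mitosis genes against detected genes, with open circles for TNF- and filled triangles for TNF+ cells, colored by group. Cells with Il17a are mostly filled red triangles spread over the range of depth, and the 4 TNF- cells with at least 5 mitosis UMIs all lie beyond 5000 genes.

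The promoters of Il17a and Il23r, the pair of the IL-17 axis that were both at least 2-fold higher in TNF+ cells, are shown as the 250 bases before the start of each gene (RefSeq, GRCm38.p6). Capitals mark AGGTCA on either strand (TGACCT when read from the other), a core that several nuclear receptors recognise. Il17a is at chr1:20730655-20730904 on the plus strand, with its motif beginning 120 bases before the start. Il23r is at chr6:67491856-67492105 on the minus strand and has 2 copies.
Il17a: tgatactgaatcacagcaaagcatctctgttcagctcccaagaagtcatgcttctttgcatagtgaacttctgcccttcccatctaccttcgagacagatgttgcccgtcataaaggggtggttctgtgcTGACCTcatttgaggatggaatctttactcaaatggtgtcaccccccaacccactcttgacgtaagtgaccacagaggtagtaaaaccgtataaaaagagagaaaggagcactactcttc
Il23r: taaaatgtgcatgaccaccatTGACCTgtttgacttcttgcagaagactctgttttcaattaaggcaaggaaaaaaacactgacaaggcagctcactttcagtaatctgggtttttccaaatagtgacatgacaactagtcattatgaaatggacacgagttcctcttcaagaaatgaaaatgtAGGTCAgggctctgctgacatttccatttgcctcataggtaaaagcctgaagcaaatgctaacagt
The motif occurred in 14.0% of the 32851 promoters of this length, and 15.8% of 27025 genes had it in at least 1 promoter. Of the 42 genes in the 4 IL-17 lists, 34 had a promoter in the table and 6 of these (17.6%) held the motif: Il17a, Il17f, Il23r, Ccr6, 5830411N06Rik and Actn2. This is a match of letters and not a binding site.

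Among the receptors that drive IL-17 cells, Il23r was higher in TNF+ cells. It ranged from 2 to 20 UMIs in 17 positive TNF- cells, with a median of 7, and from 1 to 35 in 43 positive TNF+ cells, with a median of 8. The ranges overlapped, and the level was 242 CPM in TNF- and 554 in TNF+, a log2 ratio of 1.19 (0.89 to 1.5), and 1.07 (0.71 to 1.45) in cells of at most 5000 genes. CD4 and CD8 T cells had 0.0964 UMIs of Il23r per cell in TNF- and 0.414 in TNF+. The higher level of Il23r was thus not confined to the gamma delta gate. Il7r, the receptor for a survival cytokine, had a log2 ratio of 1.20 over all cells and 0.68 in cells of at most 5000 genes. Il18r1 was at 0.86 and 0.37, Il2ra at 0.56 and 0.72, and Il1r1 at -0.01 and -0.62. Of 8 such receptors compared, 3 were at least 2-fold higher over all cells and 1, Il23r, in cells of at most 5000 genes, and none was 2-fold lower. The median of the list was 0.71 and 0.53.

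Of the transcription factors and kinases of the program, Blk was at least 2-fold higher with and without the deep cells (log2 ratios 1.22 and 1.02). It was found in 16 of 34 TNF- cells, with at most 23 UMIs, and in 39 of 63 TNF+ cells, with at most 26. CD4 and CD8 T cells had 0.0131 UMIs of Blk per cell in TNF- and 0.0618 in TNF+, so Blk was also higher there. Maf was at 0.32 and 0.05, Zbtb16 at 0.08 and -0.28, Sox13 at -0.11 and -0.55 and Rora at 0.31 and -0.03. Etv5, a factor of both IL-17-type gamma delta T cells and alveolar type 2 cells, had 45 UMIs in TNF+ cells, of which 22 and 22 were in the 2 droplets with Sftpc. In cells of at most 5000 genes, 1 of the 9 factors compared was 2-fold higher, against 6.45% of all genes. None was lower, and their median was -0.03.

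Among homing and surface genes, Ccr6 differed most. It had 2, 1, 1 and 1 UMIs in 4 TNF- cells and 4 to 6 UMIs in 9 TNF+ cells, and was not detected in the other cells of either library. The log2 ratio was 2.71 (1.38 to 4.40) over all cells and 2.67 (1.03 to 5.00) in cells of at most 5000 genes. B cells had Ccr6 in 25.1% and 40.7%, and in CD4 and CD8 T cells the log2 ratio was 2.01. The second scavenger receptor, 5830411N06Rik, had 15, 7, 2, 1 and 1 UMIs in 5 TNF- cells and 39, 10, 8, 7, 5, 5, 4, 3, 2 and 2 UMIs in 10 TNF+ cells, at log2 ratios of 1.31 and 1.07. A single TNF+ cell thus held 39 of the 85 UMIs. CD4 and CD8 T cells had 0.0278 UMIs of 5830411N06Rik per cell in TNF- and 0.0967 in TNF+, so it was also higher there. Itgae was found in 7 and 22 cells, at 1.12 and 1.55. Ccr2 was at 0.67 and 0.73, Cxcr6 at 0.89 and 0.53 and Actn2 at 1.24 and 0.83. Of the 15 genes, 5 were at least 2-fold higher over all cells and 3 (Ccr6, 5830411N06Rik and Itgae) in cells of at most 5000 genes, none was 2-fold lower, and the median was 0.70 and 0.53.

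**Figure D4:**
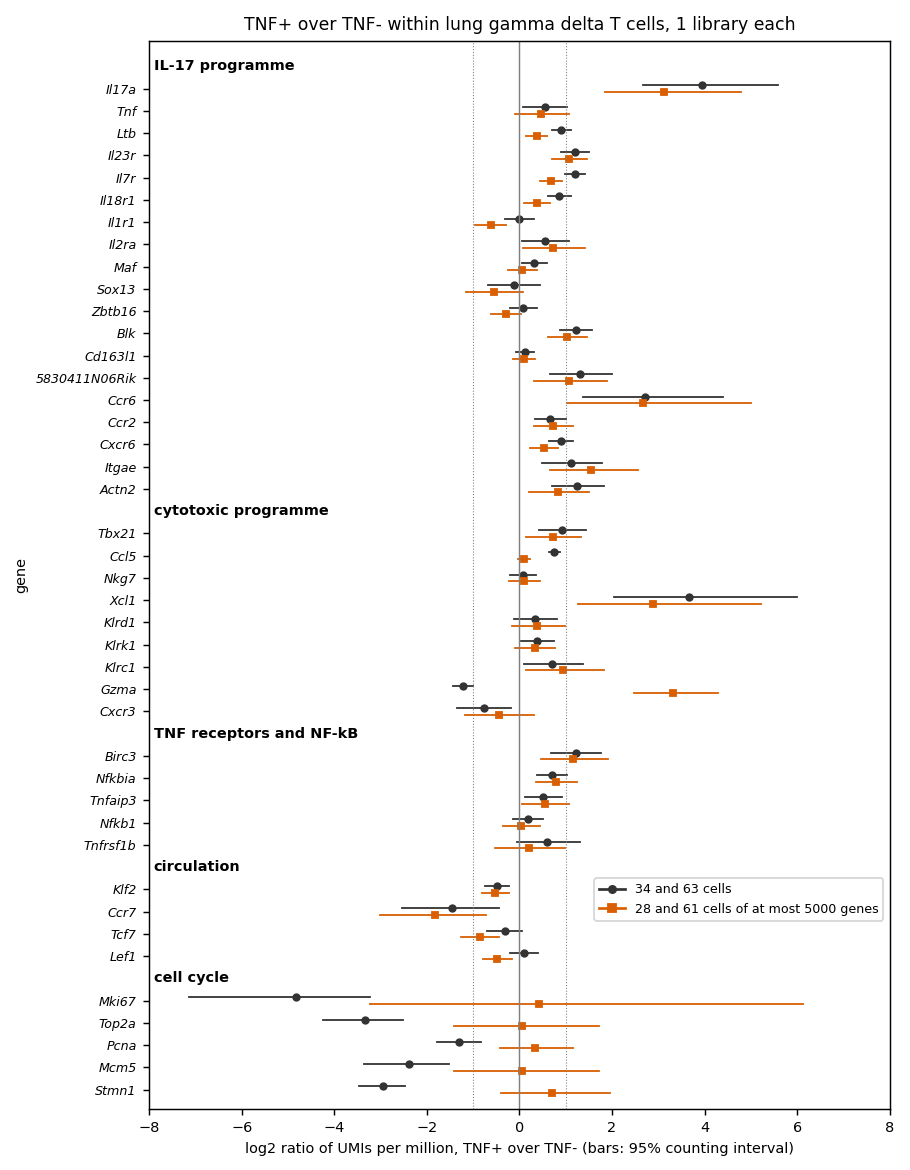
Log2 ratios of CPM, TNF+ over TNF-, for 42 genes in 5 sets, with 95% counting intervals as bars, in all 34 and 63 cells (black circles) and in the 28 and 61 cells of at most 5000 genes (orange squares). Il17a, Il23r, Blk and Ccr6 lie at or beyond 1 in both, whereas Gzma changes sign between them and the orange value of Mki67 rests on 1 and 3 UMIs.

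In the cytotoxic program the values turned on few cells. Xcl1, encoding a chemokine for dendritic cells, had 2 and 1 UMIs in 2 TNF- cells and 1 to 14 UMIs in 10 TNF+ cells, a log2 ratio of 3.66 (2.03 to 5.99) and of 2.89 in cells of at most 5000 genes. Within the Ccl5 cells it was present in 2 of 8 TNF- (25.0%) and 9 of 14 TNF+ cells (64.3%, interval 35.1 to 87.2%). NK cells of the same libraries had it in 22.8% and 50%. Gzma, a granzyme, had 461 and 12 UMIs in 2 TNF- cells and 161, 75, 31 and 1 in 4 TNF+ cells. The log2 ratio was -1.22 over all cells and 3.31 in cells of at most 5000 genes, which leave out the cell of 461 UMIs. That cell was 1 of the 4 TNF- cells over 5000 genes with Cd163l1, and was not among the Ccl5 cells. Ccl5 was at 0.76 and 0.10, Tbx21 at 0.93 and 0.72, Nkg7 at 0.07 and 0.10 and Ifng at 0.06 and 0.94 (-0.37 to 2.52). Of the 19 genes compared in cells of at most 5000 genes, 2 (Gzma and Xcl1) were 2-fold higher, none was lower and the median was 0.66. Over all cells 4 of 20 were higher and 2 lower, with a median of 0.64. This direction turned with the gate, as the median was -0.46 when cells with Ncr1 or Klrb1c were left out and 1.14 when the highest doublet scores were removed.

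Of the genes that answer TNF through NF-kB, few differed 2-fold. The TNF receptor gene Tnfrsf1a was sparse, with 14 UMIs in 8 TNF- cells and 11 in 8 TNF+ cells, and Tnfrsf1b had 29 in 16 and 58 in 33, a log2 ratio of 0.60 (-0.06 to 1.30). Birc3, an inhibitor of cell death, was 1 of 16 genes at least 2-fold higher over all cells and 1 of 14 in cells of at most 5000 genes, at 1.21 (0.69 to 1.77) and 1.15. Of all genes compared, 6.60% and 6.45% were at least 2-fold higher, so the counts of this list were near those shares. Nfkbia was at 0.70 and 0.79 and Tnfaip3 at 0.51 and 0.56, both feedback inhibitors of the pathway, and Nfkb1 at 0.18 and 0.03. The median of the list was 0.51 and 0.19, and none was 2-fold lower. Endogenous Tnf was found in 18 TNF- and 39 TNF+ cells at a log2 ratio of 0.54 (0.08 to 1.02), and 0.47 (-0.10 to 1.07) in cells of at most 5000 genes. Ltb, encoding lymphotoxin beta, was at 0.91 and 0.37.

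Of the circulation genes, Ccr7 was lower in TNF+ cells. This gene, the receptor that leads lymphocytes to lymph nodes, had 27 UMIs in 9 TNF- cells and 13 in 9 TNF+ cells, at log2 ratios of -1.45 (-2.53 to -0.45) and -1.83. The transcription factor Klf2 was at -0.49 and -0.52 and Tcf7 at -0.32 and -0.85. Of 9 genes, Ccr7 was the 1 that was 2-fold lower, and the median was -0.32 and -0.52. Lef1 was at 0.09 and -0.48. The interferon-stimulated genes showed no common direction, with a median of -0.06 and 0.01. Of 10 compared in cells of at most 5000 genes 2 were higher, Ly6a (1.47) and Isg15 (1.27), and Ifi27l2a was lower (-2.56), with 49 of its 68 TNF- UMIs in 1 cell. Among activation and checkpoint genes the costimulatory receptor Tnfrsf9 was the 1 of 8 at least 2-fold higher in cells of at most 5000 genes (2.10, in 16 TNF+ and 4 TNF- cells over all cells). Of the immediate-early and heat shock genes in cells of at most 5000 genes, 1 of 11 was higher (Ier2, 1.03) and 1 lower (Egr1, -1.24), with a median of -0.23. Of all genes compared in those cells, 6.45% were higher and 4.38% lower.

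Genes of the cell cycle were lower in TNF+ over all cells and not in the cells of at most 5000 genes. Mki67 had 35, 11, 11, 7 and 1 UMIs in 5 TNF- cells and 2 and 1 in 2 TNF+ cells, a log2 ratio of -4.83. All 13 cycle genes compared were at least 2-fold lower, with a median of -3.33. Of the 411 UMIs of 8 mitosis genes in TNF- cells, 398 (96.8%) were in the cells over 5000 genes, where 4 TNF- cells had at least 5 such UMIs. In TNF+ cells there were 30 UMIs and 1 cell with at least 5, and none of them was in a cell over 5000 genes. In cells of at most 5000 genes, 4 of the genes could be compared, none passed 2-fold and the median was 0.20. All 4 of the TNF- cells had Cd163l1. Whether the deep cells were cycling single cells or doublets was not tested. The number of cells with at least 2 UMIs of Mki67 plus Top2a was 7 of 34 (20.6%, interval 8.70 to 37.9%) in TNF- and 3 of 63 (4.76%, 0.993 to 13.3%) in TNF+.

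The genes with the widest ratios over all cells lay mostly in the 4 droplets. The 10 highest in TNF+ (Lcn2, Sftpc, Lyz1, Chil1, Ank3, Sftpa1, Sftpd, Lyz2, Hp and Cxcl15) had 81.5% to 99.6% of their UMIs in the 4 droplets, and the 10 lowest (Tspan7, Sema3c, Cavin2, Cyyr1, Ptprb, Ramp2, Cldn5, Cav1, Tek and Tmem100) had 94.9% to 100%. In cells of at most 5000 genes, the 10 highest were Igkc, Igha, Jchain, Gzma, Cxcl13, Lyz2, Apoe, Klra5, Il17a and AY036118. Igkc, an antibody light chain, had a median of 0 UMIs per TNF- and 8 per TNF+ gamma delta T cell, and NK cells of the same libraries also had medians of 0 and 8. Lyz2 had medians of 0 and 7, with 1 and 7 in NK cells, and Apoe 0 and 1, with 0 and 2 in NK cells. The part of such RNA from other cells in these ratios was not tested. For Il17a, NK cells were at 0 in both libraries. The summed macrophage markers were at a median of 1 UMI per TNF- and 10 per TNF+ gamma delta T cell, and 3 of the 6 (C1qa, C1qb and C1qc) were at 0 in the TNF- cells. The same sum had medians of 1 and 10 in CD4 and CD8 T cells, 1 and 10 in NK cells and 2 and 12 in B cells.

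The 10 lowest in cells of at most 5000 genes were Klra4, Klra8, Sox4, Sox5, Ccr9, Dpp4, B630019A10Rik, Ifi27l2a, Aff3 and Id3. Klra4 had 30 UMIs in 1 TNF- cell and 0 in TNF+ cells, and 24 of the 26 TNF- UMIs of Klra8 were in 1 cell. Ccr9, a homing receptor of the gut, had 39 UMIs in 5 TNF- cells and 9 in 4 TNF+ cells (log2 ratio -3.29, -4.52 to -2.22), with 19 of the 39 in 1 cell. Dpp4, the cell surface peptidase CD26, was spread more widely, with 38 UMIs in 10 of 28 TNF- cells and 10 in 6 of 61 TNF+ cells (-3.10, -4.27 to -2.06). Id3, a regulator of gamma delta T cell fate, had 30 UMIs in 9 cells and 12 in 10 (-2.49, -3.59 to -1.48), and Sox4 29 in 4 and 2 in 1. CD4 and CD8 T cells of all depths had 1.62 UMIs of Dpp4 per cell in TNF- and 0.922 in TNF+. They had 0.395 and 0.185 of Ccr9, 1.18 and 0.624 of Id3 and 0.461 and 0.151 of Sox4. The lower levels of Dpp4, Ccr9, Id3 and Sox4 were thus not confined to the gamma delta gate.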

How the data were processed

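Single-cell RNA was captured by droplets from pooled lungs of TNF+ and TNF- mice, 1 library each, and from synovium, which is not part of the comparisons. The deposited matrices hold UMI counts per gene and barcode, which the authors made with Cell Ranger 7.0.1 on build mm10, as the submitters' processing notes name them. They are not normalized. The cells, gene lists and groups were chosen with earlier results of these data known.

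From the counts, barcodes with at least 500 UMIs and at most 20% mitochondrial UMIs were kept. CD4 and CD8 T cells, NK cells and B cells were gated on their own transcripts in the same way for comparison. UMIs were summed per group and scaled to 1000000 UMIs of the group. Shares have exact Clopper-Pearson intervals, levels exact Poisson intervals, ratios conditional binomial intervals and share differences Newcombe intervals, all at 95%. A gene was compared with at least 20 UMIs over both groups, 2-fold was the limit for counting it, and a floor of 3 UMIs stands for 0. For a share of 0 the upper limit given is 3 cells of the total, which is lower than the Clopper-Pearson bound. Shares with a UMI were also given as the exact expectation after drawing 1000 UMIs from each cell. With 1 library per genotype no test was run. The PCR copies were collapsed to UMIs, so intervals and floors cover counting error only, and not the spread between mice or libraries. Intervals of levels and ratios treat each UMI as independent, so they also leave out the spread between cells.

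Genes named are members of the 213 genes of 24 lists, together with the 10 highest and 10 lowest in TNF+ over TNF-, and the 10 highest over CD4 and CD8 T cells, ranked by the interval bound nearer to 0. Other genes lower than in CD4 and CD8 T cells were named after their values were seen. Some list members are counted in the lists but not reported here by name. Doublets were not removed. Removing the highest Scrublet scores (scanpy 1.11.5) was an alternative, as were stricter gates, the study's filter of 200 to 5000 genes, other scaling, weighting and minimum counts. Leaving out the 4 droplets was added after the data were seen. The code was tested on simulated counts. Python 3.11.15, NumPy 2.4.6, SciPy 1.17.1, pandas 2.3.3, statsmodels 0.14.6 and matplotlib 3.10.9 were used.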

Additional observations from a re-analysis of the deposited data

How the results depend on the processing

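Of 348 values recomputed for 35 results, 318 stayed within the interval of the value reported (for counts of genes, within 1.5 times) and 30 did not. The sign changed in 4. With the mean of per-cell CPM, which weights each cell equally, 15 values stayed within these limits and 5 did not. With the study's filter of 200 to 5000 genes the median of the cell cycle list went to 0.20, that of the IL-17 transcription factors to -0.03 and Mki67 to 0.41, which rests on 1 TNF- and 3 TNF+ UMIs, under the minimum of 20, and 269 genes were at least 2-fold lower in TNF+. With Ncr1 and Klrb1c at 0 in the gate, the log2 ratio of Cd163l1 was 0.35 and the median of the cytotoxic list went from 0.64 to -0.46. With 1 UMI each of Cd79a and Csf1r allowed, Cd163l1 was at 0.40. With the highest Scrublet scores removed, which took 2 cells from each library, the cytotoxic median was 1.14. The cause was not tested for these. With a minimum of 10 UMIs, which admits more genes, 882 genes were higher and 1170 lower in TNF+, and with 50 UMIs, which admits fewer, 192 and 256. With 50 UMIs, 649 genes were higher and 560 lower than in CD4 and CD8 T cells of the TNF+ lung. Without thinning, 54.0% of TNF+ cells had Cd163l1 and 23.8% had Il17a. No paired analysis was possible because each genotype is 1 library and the labels give no shared replicate numbers. Depth and the number of cells limit all values of sparse genes.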

Other observations

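The same gate found 13 cells in the TNF- synovium library and 6 in the TNF+ synovium library, too few for a comparison. Cd163l1 was present in 6 of the 13 and 3 of the 6, Trdv4 in 6 and 3, Il23r in 8 and 1, Il17a in 4 and 1, and Ccl5 in 4 and 2. Tcrg-C1 was found in 10 and 2 of these cells.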
